A study of Homo sapiens with 9 samples.

Results

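This section describes HK-2 cells after 48 h of transforming growth factor β1 (TGFβ1) against untreated HK-2 cells, gene by gene. It rests on 6 of the 9 arrays of the series, 3 of untreated cells at 0 h and 3 at 48 h, chosen by their labelled time and paired by replicate number. HK-2 is an immortalised line of human kidney proximal tubule epithelium, and the study followed its TGFβ1-driven epithelial to mesenchymal transition at 0, 24 and 48 h. Of 11963 genes named on the array, 4368 were tested, those whose log2 value reached 4 on 3 or more of the 9 arrays.

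All cells were grown in DMEM-F12 without serum named in the labels, with EGF, hydrocortisone, triiodothyronine and insulin, transferrin and selenium. Each array holds RNA pooled from triplicate plates of 1 time point in 1 run, and the runs were done on separate days with consecutive passages. The 3 replicates of a group are thus separate runs of 1 cell line. The sample labels call the 0 h cells untreated while the design text names a vehicle group, and they are called untreated here. No untreated culture kept for 48 h was analysed here, so TGFβ1 and time in culture cannot be told apart. The TGFβ1 dose was not given in the sources used here.

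TGFβ1 is a secreted cytokine that binds a pair of receptor kinases, which phosphorylate the transcription factors SMAD2 and SMAD3. These enter the nucleus with SMAD4 and switch target genes, among them inhibitors of the pathway itself and genes of the matrix and the contractile cytoskeleton. In tubule epithelium the pathway is known for loss of epithelial junctions and transport functions and for gain of mesenchymal features, and it is a main driver of kidney fibrosis.

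Expression was measured on a 1-colour Affymetrix array as 1 log2 value per probe set, and array medians lay between 2.2 and 2.23. A difference is 48 h minus untreated on the log2 scale, as the mean of the 3 within-run differences ± the standard error of the limma fit, n = 3 arrays per group. That fit does not pair the arrays by run, so the ± includes shifts between runs. It is not the spread of the within-run differences. Its median over genes was 0.191, and 0.139 with the replicate number in the fit. For KCNJ16 the 2 values were 0.53 and 0.11. The labelled cell type was checked against marker genes. Of 22 proximal tubule markers on the array, 6 reached a log2 value of 4 on all 3 untreated arrays, among them PAX8, FXYD2 and ASS1, while the others, most of the defining transporters and brush border enzymes included, did not. Of 9 endothelial and of 9 leukocyte markers, 0 reached that level in either group, and of 12 fibroblast markers 1 did in both groups, LUM, which encodes the proteoglycan lumican (0.33, adjusted p = 0.56). Of 12 distal nephron markers SCNN1A alone reached it in untreated cells and 0 at 48 h, and of 6 podocyte markers 1 did in both groups. The mean over the 12 fibroblast markers was 2.26 to 2.37 on the untreated arrays and 2.31 to 2.44 at 48 h. In bulk RNA, fewer cells of a type and less RNA per cell cannot be told apart.

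After 48 h, 99 genes were higher and 95 lower at an adjusted p under 0.05, 2.27% and 2.17% of the 4368 tested and 4.44% together. The largest increases were those of the Notch ligand JAG1 and the activin subunit INHBA, and the largest decreases those of the cytokine GDF15, the crystallin CRYM and the tetraspanin CD9. Of the 194 called genes 125 differed at least 2-fold, 66 higher and 59 lower. At least 4-fold there were 17 higher and 13 lower, and at least 8-fold 3 and 3. For each of the 194 the arrays of the groups did not overlap, as was so for 18.1% of all genes tested (9.75% higher and 8.31% lower). Of the 99 higher genes, 25 had all 3 untreated arrays below 4 and so passed the filter only through treated arrays. Among them were INHBA, SLC7A11, IL11, TNS1, PMEPA1, WNT5A, FBN1, EFEMP1, HES1, ADGRG1, FSTL3, DSP, ADAM19, KLF7, SPHK1 and CUX1. Their p-values and their part in the list counts below depend on that filter and are given as description. Of the 95 lower genes, 19 had all 3 arrays at 48 h below 4. Among them GDF15, CRYM, SCNN1A, ACSL1, HLA-DMB, PLLP, ELF3 and ALDH1A3 were below 4 on every 24 h array too. These passed the filter only through untreated arrays, so their p-values and their part in the list counts are likewise given as description. Near a log2 value of 4 values cannot be told from background, and folds that start or end there are compressed.

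With the replicate number as a block, which sets each 48 h array against the untreated array of its own run, 228 genes were higher (5.22%) and 210 lower (4.81%), 438 in all (10.0%). They included all 194. The count also depended on single arrays: it was 119 without untreated replicate 1, 112 without 48 h replicate 1 and 111 without 48 h replicate 3, while leaving out the other 3 arrays in turn gave 134 to 206. Of the 194 calls, 92 held in each of these 6 fits. These fits had no replicate block, so their p-values include the shifts between runs. No fit with the block left out an array. Without all arrays of a run the count was 33, 112 and 79 for runs 1, 2 and 3, with fewer arrays to estimate the spread. Calls lost in at least 1 of the 6 fits that left out 1 array are named below with the number of such fits, and with the largest adjusted p among the 6 and the array left out to give it.

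**Figure D1:**
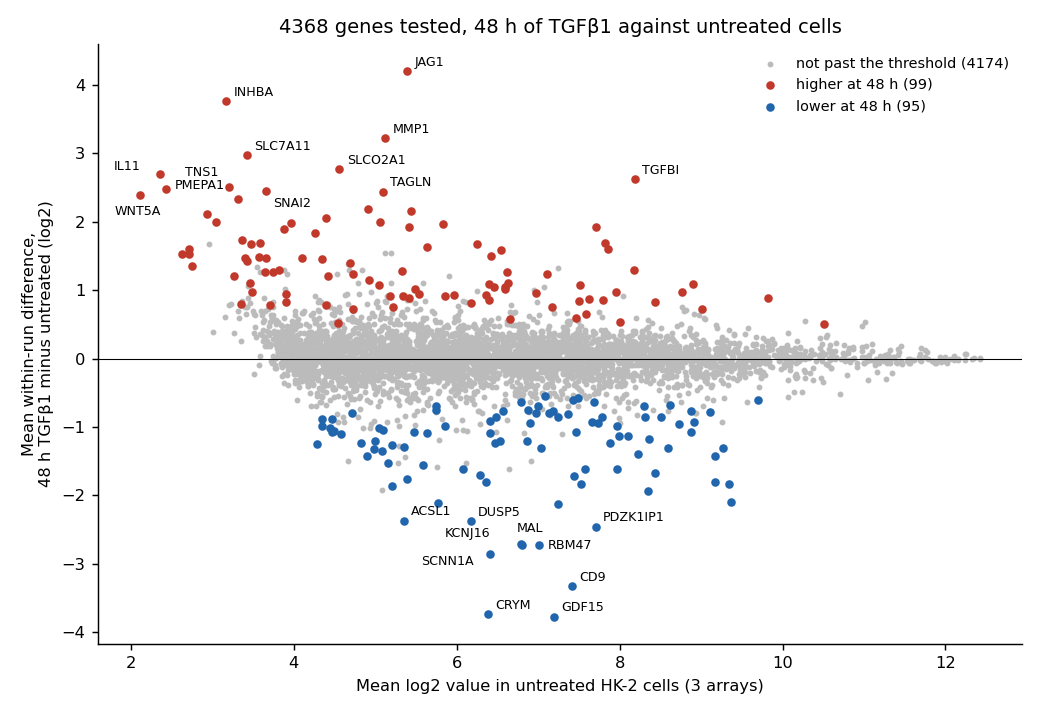
Mean within-run log2 difference (48 h of TGFβ1 minus untreated, y axis) against the mean log2 value in untreated cells (x axis), 1 point per gene for the 4368 genes tested, with the 99 higher genes in red, the 95 lower genes in blue and the others in grey. JAG1 at 4.20 and GDF15 at −3.77 mark the ends of the range, and some grey points lie further from 0 than many coloured ones because the test weighs the spread between arrays.

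JAG1 encodes a membrane ligand of Notch receptors. Its log2 values were 5.72, 4.46 and 5.99 in untreated replicates 1 to 3 and 9.77, 9.07 and 9.93 at 48 h. Replicate 2 was the lowest array of both groups, and every treated array lay more than 3 log2 units above every untreated one. The mean difference was 4.20 ± 0.41 (18.4-fold, adjusted p = 0.000428). INHBA, the gene for the chain that forms activin A, a ligand of the TGF-beta family, was at 3.35, 3.12 and 3.04 in untreated cells and at 7.25, 6.50 and 7.04 at 48 h. The untreated arrays, all below 4, lay close together and far from the treated ones, with a difference of 3.76 ± 0.33 (13.5-fold, adjusted p = 0.000329), and the mean of its 2 probe sets gave 2.27. MMP1, the interstitial collagenase, was at 5.36, 4.16 and 5.82 untreated and 8.56, 7.74 and 8.71 at 48 h. Here too replicate 2 was the lowest array of both groups, and the groups did not overlap (3.22 ± 0.44, 9.32-fold, adjusted p = 0.00306).

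SLC7A11, the cystine transporter that feeds glutathione synthesis, went from 3.40, 3.53 and 3.35 to 6.11, 6.89 and 6.18 (2.97 ± 0.30, 7.83-fold, adjusted p = 0.000533). Its highest treated array was that of replicate 2, and all untreated arrays were below 4. SLCO2A1, a prostaglandin transporter, went from 4.94, 4.39 and 4.37 to 7.36, 7.37 and 7.28 (2.77 ± 0.17, 6.84-fold, adjusted p = 5.42e-05). The 3 treated arrays lay within 0.1 of each other, closer than the untreated ones. IL11, a cytokine of the IL6 family, went from 2.03, 2.42 and 2.62 to 5.24, 4.78 and 5.14 (2.70 ± 0.23, 6.49-fold, adjusted p = 0.000262), from the background range to values above 4 on every treated array.

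TGFBI, a secreted matrix protein named for its induction by TGF-beta, was at 7.90, 8.05 and 8.61 in untreated cells and 10.76, 10.66 and 11.01 at 48 h (2.62 ± 0.24, 6.16-fold, adjusted p = 0.000338). It was well above the background range in both groups, which did not overlap. TNS1, which encodes the focal adhesion protein tensin 1, was at 2.96, 2.84 and 3.81 and 5.43, 5.59 and 6.14 (2.51 ± 0.34, adjusted p = 0.00274), and PMEPA1, which dampens SMAD signalling, at 2.54, 2.17 and 2.58 and 4.87, 4.97 and 4.87 (2.48 ± 0.16, adjusted p = 6.44e-05). Replicate 3 was the highest array of both groups for TNS1, and the treated arrays of PMEPA1 were nearly level. SNAI2, the transcription factor Slug, which represses epithelial genes, was at 4.05, 3.37 and 3.57 and 5.98, 6.26 and 6.09 (2.45 ± 0.23, 5.46-fold, adjusted p = 0.000428). TAGLN, the actin-binding protein transgelin, was at 5.27, 5.51 and 4.48 and 7.27, 7.58 and 7.72 (2.44 ± 0.30, adjusted p = 0.00166). Untreated replicate 3 was the lowest TAGLN array and 48 h replicate 3 the highest.

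The other increases among the 15 largest were those of WNT5A, a Wnt ligand that acts largely outside the beta-catenin branch (2.39 ± 0.23), the microfibril gene FBN1 (2.34 ± 0.28), the LIM-domain gene LMCD1 (2.18 ± 0.38) and the sulphate transporter SLC26A2 (2.16 ± 0.36). Their adjusted p-values were 0.000428, 0.00162, 0.0108 and 0.00908. All 3 untreated arrays of WNT5A and of FBN1 were below 4. The call of LMCD1 was the only one of these 15 to be lost with 1 array left out (adjusted p = 0.0531, without untreated replicate 1).

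**Figure D2:**
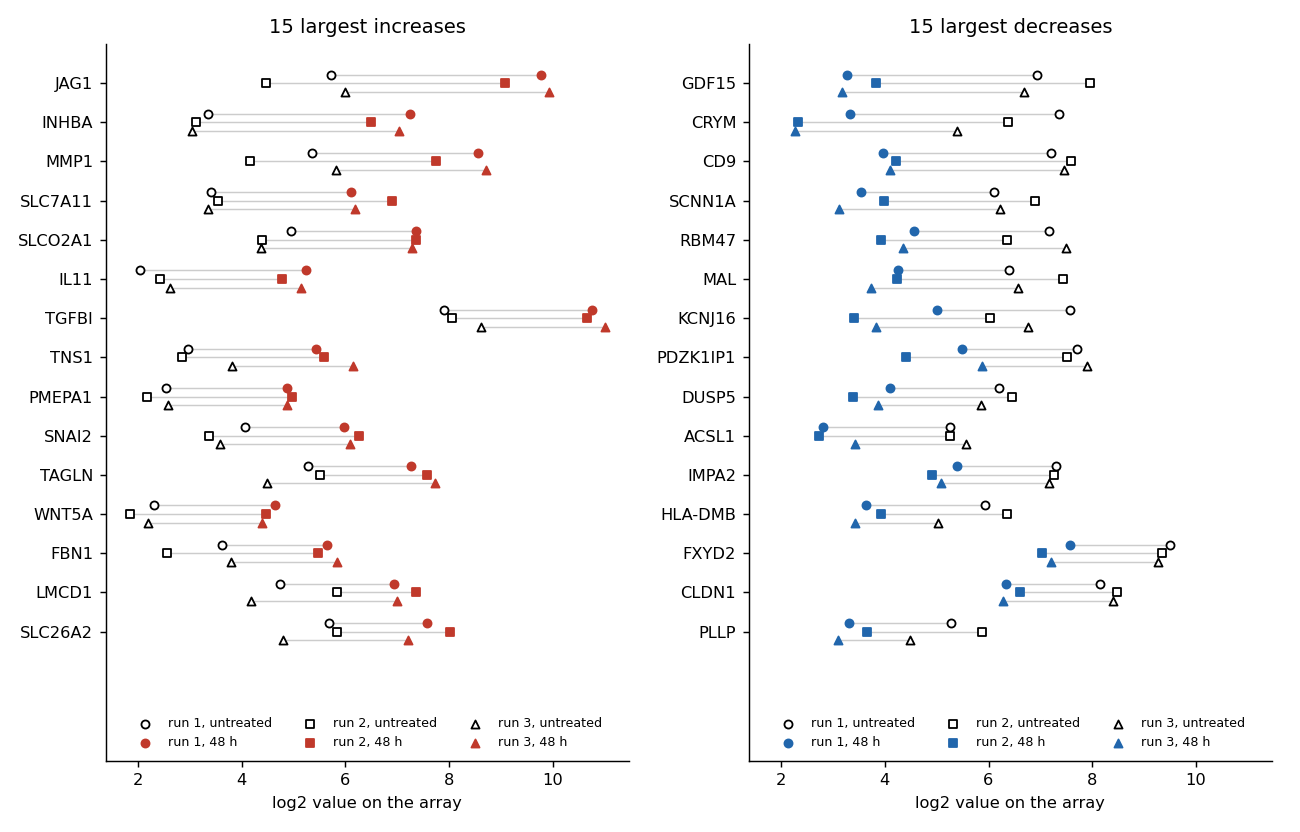
Log2 value on each array (x axis) for the 15 largest increases (left) and the 15 largest decreases (right), with open symbols for untreated cells, filled ones for 48 h of TGFβ1, circles, squares and triangles for runs 1, 2 and 3, and a line joining the arrays of a run. Open and filled symbols of a gene do not overlap, which is part of the rule that chose these genes, and JAG1, MMP1 and KCNJ16 show runs that are shifted together in both groups.

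GDF15, a stress-induced secreted member of the TGF-beta family, showed the largest decrease. Its log2 values were 6.93, 7.96 and 6.69 in untreated replicates 1 to 3 and 3.26, 3.83 and 3.17 at 48 h, a difference of −3.77 ± 0.40 (13.7-fold lower, adjusted p = 0.00075). Every treated array was below the filter level of 4. CRYM, which encodes the thyroid hormone-binding protein mu-crystallin, was at 7.36, 6.38 and 5.40 and 3.32, 2.33 and 2.27 (−3.74 ± 0.50, 13.4-fold lower, adjusted p = 0.00262). Replicate 1 was the highest CRYM array of both groups. CD9, a tetraspanin that organises membrane complexes with integrins, was at 7.21, 7.60 and 7.46 and 3.97, 4.22 and 4.10 (−3.33 ± 0.19, 10.0-fold lower, adjusted p = 5.42e-05). It had the tightest groups of these 3 genes.

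SCNN1A, a pore-forming chain of the epithelial sodium channel, was at 6.11, 6.89 and 6.22 in untreated cells and 3.54, 3.99 and 3.11 at 48 h (−2.86 ± 0.34, 7.28-fold lower, adjusted p = 0.00162), and the mean of its 3 probe sets gave −1.02. All 3 of its treated arrays ended below 4. The RNA-binding splicing and stability factor RBM47 was at 7.17, 6.36 and 7.49 and 4.56, 3.92 and 4.34 (−2.73 ± 0.30, adjusted p = 0.00108), and MAL, a raft protein of apical sorting, at 6.39, 7.43 and 6.57 and 4.25, 4.23 and 3.74 (−2.72 ± 0.28, adjusted p = 0.000543). Replicate 2 was the lowest array of both groups for RBM47, and the highest untreated array for MAL. The potassium channel KCNJ16 was at 7.58, 6.03 and 6.76 and 5.00, 3.41 and 3.83 (−2.71 ± 0.53, adjusted p = 0.0187). Replicate 1 was more than 1 log2 unit above replicate 2 in both groups, and the call was lost in 4 of the 6 fits with 1 array left out (0.0821 at most), while with the replicate block the adjusted p was 1.05e-05.

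PDZK1IP1, a membrane protein that binds the brush border scaffold PDZK1, was at 7.71, 7.51 and 7.90 and 5.48, 4.40 and 5.87 (−2.46 ± 0.36, adjusted p = 0.00417). The ERK phosphatase DUSP5 was at 6.20, 6.46 and 5.85 and 4.10, 3.39 and 3.87 (−2.38 ± 0.22, adjusted p = 0.000338). ACSL1, which activates long-chain fatty acids, was at 5.25, 5.25 and 5.56 and 2.81, 2.72 and 3.43 (−2.37 ± 0.19, adjusted p = 0.000239). In all 3 genes the lowest treated array was that of replicate 2. The other decreases among the 15 largest were those of the inositol monophosphatase IMPA2 (−2.12 ± 0.17), the peptide-loading gene HLA-DMB (−2.11 ± 0.32), the Na,K-ATPase regulator FXYD2 (−2.10 ± 0.17), the tight junction gene CLDN1 (−1.94 ± 0.16) and PLLP, a membrane protein related to MAL (−1.86 ± 0.30). Their adjusted p-values ran from 0.000233 for FXYD2 to 0.00792 for PLLP.

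To show the regulatory sequence of genes that moved most, the 250 bases before the transcription start are given for the 3 largest increases and the 3 largest decreases with exactly 1 start listed in RefSeq (build GRCh38.p14). They read 5′ to 3′ on the strand of the gene. Capitals mark 3 motifs searched on both strands: CAGAC, the SMAD-binding element (GTCTG on the other strand), TGANTCA, the AP-1 site, and CAGGTG, an E-box bound by SNAI2 and related factors (CACCTG on the other strand). None of them overlaps another in these sequences. The positions are chr20:10674000-10674249 (− strand) for JAG1, chr7:41703091-41703340 (− strand) for INHBA, chr19:55370464-55370713 (− strand) for IL11, chr19:18385908-18386157 (+ strand) for GDF15, chr2:95025458-95025707 (+ strand) for MAL and chr1:47190037-47190286 (− strand) for PDZK1IP1.
JAG1: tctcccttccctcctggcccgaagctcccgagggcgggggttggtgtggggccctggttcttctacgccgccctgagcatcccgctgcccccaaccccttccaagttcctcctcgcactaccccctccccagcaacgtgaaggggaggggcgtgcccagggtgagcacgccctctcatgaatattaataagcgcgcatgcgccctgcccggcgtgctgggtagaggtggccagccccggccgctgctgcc
INHBA: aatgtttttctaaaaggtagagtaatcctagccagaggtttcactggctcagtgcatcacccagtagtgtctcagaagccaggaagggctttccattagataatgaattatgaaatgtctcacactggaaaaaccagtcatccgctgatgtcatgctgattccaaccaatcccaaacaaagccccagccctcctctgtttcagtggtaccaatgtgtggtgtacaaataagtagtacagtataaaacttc
IL11: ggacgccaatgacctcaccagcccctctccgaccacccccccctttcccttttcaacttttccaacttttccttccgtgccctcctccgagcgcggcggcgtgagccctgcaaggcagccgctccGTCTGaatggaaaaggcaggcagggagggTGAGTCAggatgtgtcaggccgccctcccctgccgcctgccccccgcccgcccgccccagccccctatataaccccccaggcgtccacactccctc
GDF15: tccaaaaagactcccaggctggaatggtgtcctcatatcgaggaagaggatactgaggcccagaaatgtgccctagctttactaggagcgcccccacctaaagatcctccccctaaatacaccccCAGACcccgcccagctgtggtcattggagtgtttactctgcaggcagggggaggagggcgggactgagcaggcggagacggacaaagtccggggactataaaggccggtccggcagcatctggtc
MAL: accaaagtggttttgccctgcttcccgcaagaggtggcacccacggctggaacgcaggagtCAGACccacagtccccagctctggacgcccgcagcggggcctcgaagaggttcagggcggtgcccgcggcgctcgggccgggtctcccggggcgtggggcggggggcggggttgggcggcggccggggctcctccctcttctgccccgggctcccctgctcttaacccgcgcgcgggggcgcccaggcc
PDZK1IP1: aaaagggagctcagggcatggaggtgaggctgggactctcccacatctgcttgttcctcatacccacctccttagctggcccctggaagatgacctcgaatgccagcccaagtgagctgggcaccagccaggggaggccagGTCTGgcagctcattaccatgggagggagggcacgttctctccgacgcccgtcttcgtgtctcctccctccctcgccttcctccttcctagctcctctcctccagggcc

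The IL11 window held 1 SMAD-binding element and 1 AP-1 site, the windows of GDF15, MAL and PDZK1IP1 held 1 SMAD-binding element each, and those of JAG1 and INHBA held none of the 3 motifs. Of the 194 called genes 159 had an entry in the promoter table. CAGAC was found in 43.4% of the 159 windows of the higher genes, 34.6% of the 127 windows of the lower genes and 38.0% of all 35116 windows in the table. The AP-1 site was found in 7.55%, 7.09% and 6.57%, and CAGGTG in 14.5%, 16.5% and 17.5%. Among the 5517 windows of the genes tested, from which the called genes come, the shares were 35.1% for CAGAC, 4.51% for the AP-1 site and 13.9% for CAGGTG. These shares were not tested. A match of letters is a description and not a measured binding site, and a gene with several starts counts once for each.

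The genes of the pathway and of the programmes it is known to act on were grouped into lists, and for each list the members that passed the test are given against those tested. Over all genes tested the median difference was 0.02, and 4.44% passed without the replicate block and 10.0% with it. A list whose share lies near these is described by its members and not read as a change of the list. The lists were drawn up with results of these data known, so their counts describe the lists and are not independent evidence.

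**Figure D3:**
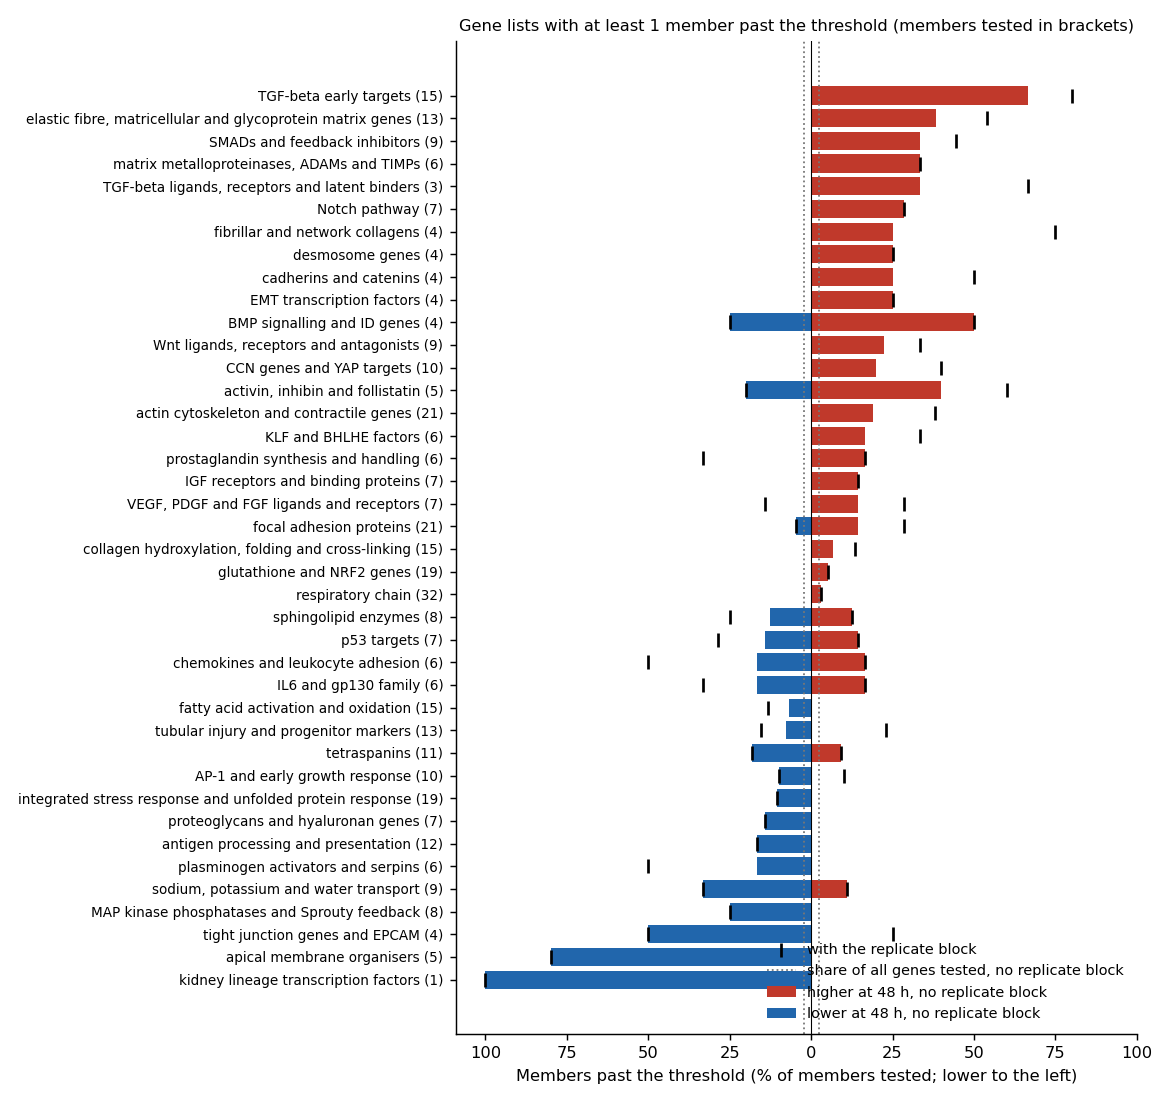
Share of the tested members of each gene list that passed the threshold (x axis, percent), higher at 48 h to the right in red and lower to the left in blue, for lists with at least 1 such member, with ticks for the fit with the replicate block, dotted lines for the shares over all 4368 genes (2.27% and 2.17%) and the number of members tested in brackets. The early targets of TGF-beta have 10 higher and 0 lower of 15. The apical membrane list, which also holds the regulators RBM47 and ELF3, has 0 higher and 4 lower of 5.

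Among early target genes of TGF-beta, 10 of 15 rose and 0 fell, with a median difference of 1.30. Besides PMEPA1, TGFBI, IL11, TAGLN and LMCD1 these were the latent TGF-beta binding protein LTBP2 (1.01 ± 0.13, adjusted p = 0.00204), the metalloprotease ADAM19 (1.43 ± 0.24, adjusted p = 0.00922), the anchoring fibril collagen COL7A1 (1.30 ± 0.24, adjusted p = 0.0133), SMAD7 and the tropomyosin TPM1. CCN2, a matricellular target, was at 6.76, 7.03 and 5.75 untreated and 7.39, 7.25 and 6.69 at 48 h and did not pass in either fit (0.60 ± 0.33, adjusted p = 0.513, 0.182 with the replicate block). Its untreated and treated arrays overlapped. JUNB and BHLHE40, both transcription factors, passed with the replicate block alone (adjusted p = 0.0146 and 0.00154).

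Of 9 SMADs and feedback inhibitors 3 rose and 0 fell, and all 3 inhibit the pathway: PMEPA1, SMAD7, which blocks the receptor, and SMURF2, a ubiquitin ligase that works with it. SMAD7 was at 4.02, 4.07 and 2.67 untreated and 5.17, 5.25 and 5.43 at 48 h (1.69 ± 0.33, adjusted p = 0.0182). Untreated replicate 3 was far below the other untreated arrays. SMURF2 had a difference of 0.81 ± 0.15 (adjusted p = 0.0133), and the signal carriers SMAD1, SMAD2 and SMAD4 had 0.31, 0.42 and 0.29 and did not pass. TGFB1 itself passed with the replicate block alone (1.10, adjusted p = 0.0506, 0.0323 with the block). Calls here lost with 1 array left out were those of SMAD7 in 3 (0.0813, without 48 h replicate 3), SMURF2 in 2 (0.0721, without 48 h replicate 1), COL7A1 in 2 (0.0637, without 48 h replicate 3) and TPM1 in 5 (0.16, without 48 h replicate 2).

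Signalling genes of related pathways moved in both directions. Of 5 activin genes, INHBA and FSTL3, a secreted antagonist of activin, rose (1.53 ± 0.18, adjusted p = 0.00162 for FSTL3), while ACVR1B, the type I activin receptor, fell (−1.39 ± 0.17, adjusted p = 0.00184). ACVR1B was at 8.10, 8.01 and 8.58 untreated and 6.87, 6.74 and 6.91 at 48 h, with no overlap. Of 4 BMP genes, the BMP antagonist GREM1 rose from 7.61, 7.64 and 7.86 to 9.52, 9.59 and 9.82 (1.93 ± 0.14, adjusted p = 0.000142). The ID factors, which sequester helix-loop-helix proteins, went opposite ways: ID1 rose (0.97 ± 0.19, adjusted p = 0.0214) and ID2 fell (−1.08 ± 0.17, adjusted p = 0.00635). Of 7 Notch genes, JAG1 and the target repressor HES1 rose, HES1 from 3.42, 2.77 and 2.95 to 4.99, 4.81 and 5.33 (2.00 ± 0.19, adjusted p = 0.000428), while the receptor NOTCH2 had −0.16 and its partner RBPJ 0.40. Of 9 Wnt genes, WNT5A and its relative WNT5B rose (1.47 ± 0.23, adjusted p = 0.00709), and 0 fell. Of these, the call lost with 1 array left out was that of ID1 in 4 (0.0996, without 48 h replicate 1).

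Among factors that drive epithelial to mesenchymal transition, SNAI2 rose, the 1 of 4 tested. ZEB1 and TWIST1 had −0.49 ± 0.47 and −0.36 ± 0.31 and did not pass (adjusted p = 0.78 and 0.726), and SNAI1 was below the filter. Of 4 cadherins and catenins, the N-cadherin gene CDH2 rose from 6.38, 5.87 and 7.02 to 7.66, 7.77 and 8.33 (1.5 ± 0.30, adjusted p = 0.0222). The groups did not overlap. CDH6, a kidney cadherin, passed with the replicate block alone (1.33, adjusted p = 0.00659), and the E-cadherin gene CDH1 was below the filter.

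Junction genes did not move one way. CLDN1 fell from 8.15, 8.48 and 8.41 to 6.33, 6.60 and 6.28 and EPCAM, an epithelial adhesion molecule, from 8.22, 8.24 and 8.63 to 7.09, 7.26 and 7.22 (−1.17 ± 0.14, adjusted p = 0.00172), the 2 that fell of 4 tested. The tight junction scaffold TJP1 had 0.68 and was higher with the replicate block alone (adjusted p = 0.0283). DSP, which encodes the desmosome linker desmoplakin, rose from 3.11, 3.22 and 3.75 to 4.96, 4.62 and 5.69 (1.73 ± 0.30, adjusted p = 0.0108). Of 8 intermediate filament genes limma called 0, with 3 at an unadjusted p under 0.05, and with the block the mesenchymal filament VIM was higher (0.48, adjusted p = 0.185, 0.0341 with the block). The epithelial keratin gene KRT18 had −0.28 (adjusted p = 0.674). Calls lost with 1 array left out were those of CDH2 in 5 (0.0975, without 48 h replicate 3) and DSP in 1 (0.0536, without untreated replicate 1).

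Several genes of microfibrils and secreted matrix glycoproteins rose. Of 13 elastic fibre and matricellular genes 5 rose and 0 fell, with a median of 0.53. FBN1, the microfibril backbone, went from 3.61, 2.56 and 3.78 to 5.65, 5.47 and 5.83. EFEMP1, a fibulin, rose by 2.12 ± 0.21 (adjusted p = 0.000543), SPARC, a collagen-binding glycoprotein, by 1.29 ± 0.19 (adjusted p = 0.00461) and THBS1, which can activate latent TGF-beta, by 1.63 ± 0.36 (adjusted p = 0.0344). Fibronectin, FN1, was at 10.74, 11.01 and 11.30 untreated and 11.47, 11.63 and 11.54 at 48 h, and passed with the replicate block alone (0.53 ± 0.16, adjusted p = 0.109, 0.0421 with the block). Every treated FN1 array lay above the untreated array of its own run. When every probe set was tested, 3 other sets of FN1 had 0.55, 0.67 and 0.56 and did not pass, while 2 sets that were dim in untreated cells passed, with 3.0 and 1.83 (adjusted p = 0.000429 and 0.00043), so the sets of FN1 disagree on the size of the change and on the call.

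Of 4 collagens tested COL7A1 rose, and the basement membrane chains COL4A1 and COL4A2 passed with the replicate block alone (0.76 and 0.59, adjusted p = 0.0521 and 0.0888, 0.00191 and 0.00804 with the block). COL1A1 was below the filter. Of 15 genes for collagen hydroxylation, folding and cross-linking, the prolyl hydroxylase subunit P4HA2 rose (0.86 ± 0.20, adjusted p = 0.0413), and the cross-linking enzyme LOX, at 1.68, passed with the block alone (adjusted p = 0.266, 0.00538 with it). Of 4 laminin and agrin genes limma called 0, with 0 at an unadjusted p under 0.05 and 0 with the block. Of 6 proteases and inhibitors MMP1 and ADAM19 rose, while the inhibitors TIMP1 and TIMP2 had −0.25 and −0.46 and did not pass. The heparan sulphate proteoglycan SDC4 fell (−0.85 ± 0.19, adjusted p = 0.0336), as did the protease inhibitor SERPINA1 (−1.84 ± 0.18, adjusted p = 0.000428). Lost with 1 array left out were THBS1 in 5 (0.131, without untreated replicate 1), COL7A1 in 2 (0.0637, without 48 h replicate 3), P4HA2 in 5 (0.17, without 48 h replicate 3) and SDC4 in 5 (0.138, without 48 h replicate 1).

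Adhesion and cytoskeletal genes rose in part. Of 6 integrin subunits limma called 0, with 5 at an unadjusted p under 0.05. With the replicate block 4 were higher, the fibronectin receptor chain ITGA5 (0.80), ITGAV (0.70), ITGB1 (0.55) and ITGB3 (0.80), and the laminin receptor chain ITGA3 was lower (−0.81). Their adjusted p-values were 0.0457, 0.019, 0.0366, 0.019 and 0.00546 with the block and 0.189, 0.297, 0.198, 0.0582 and 0.14 without it. Of 21 focal adhesion genes TNS1, LMCD1 and the actin-linked LIM protein PDLIM7 rose (1.08 ± 0.23, adjusted p = 0.03), while its relative PDLIM1 fell (−0.96 ± 0.22, adjusted p = 0.0382). The scaffold NEDD9 had 1.54 and passed with the block alone (adjusted p = 0.00251).

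Of 21 actin and contractile genes 4 rose and 0 fell: TAGLN, its relative TAGLN2 (0.72 ± 0.17, adjusted p = 0.0488) and the tropomyosins TPM4 (0.65 ± 0.15, adjusted p = 0.0395) and TPM1 (0.51 ± 0.12, adjusted p = 0.0429). TPM1 was above its own run's untreated array in all 3 runs. With the block 8 were higher, among them the myosin light chain MYL9 (1.04, adjusted p = 0.0108), while actin itself, ACTB, had 0.07. The smooth muscle actin gene ACTA2 was below the filter. Of 10 CCN genes and YAP targets 2 rose and 0 fell (4 and 0 with the block). CCN3 was among them (1.04 ± 0.16, adjusted p = 0.00547), while CCN1 had −0.03 and did not pass. Calls lost with 1 array left out were those of PDLIM7 in 5 (0.129, without untreated replicate 1), PDLIM1 in 5 (0.145, without 48 h replicate 1), TAGLN2 in 6 (0.18, without untreated replicate 1), TPM4 in 5 (0.162, without 48 h replicate 3) and TPM1 in 5 (0.16, without 48 h replicate 2).

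Most genes of tubule transport and apical identity that passed the test fell. Of 5 genes in the list named for apical membrane organisers 4 fell, MAL, PDZK1IP1, RBM47 and ELF3 (−1.08 ± 0.16, adjusted p = 0.00574 for ELF3). The RNA-binding factor RBM47 and ELF3, a transcription factor of epithelia, are regulators and not membrane proteins. The protease inhibitor SPINT2 had −0.31 and did not pass. Of 9 sodium, potassium and water transport genes, SCNN1A, KCNJ16 and FXYD2 fell. FXYD2 was at 9.50, 9.34 and 9.28 untreated and 7.58, 7.03 and 7.21 at 48 h (4.28-fold lower). SGK1, a kinase that raises sodium channel activity, rose (1.23 ± 0.14, adjusted p = 0.00133), and the ATPase subunit ATP1B1 had −0.56 and did not pass. PAX8, the kidney lineage factor, fell from 7.36, 7.39 and 7.34 to 6.65, 6.62 and 6.41 (−0.81 ± 0.12, adjusted p = 0.00496), and the arginine synthesis enzyme ASS1 fell too (−1.09 ± 0.19, adjusted p = 0.012). Of 4 brush border genes and of 4 solute carriers limma called 0, with 1 and 1 at an unadjusted p under 0.05. The scaffold PDZK1 was lower with the replicate block alone (−1.52, adjusted p = 0.161, 0.00163 with the block), and the glucose transporter SLC2A1 higher (0.54, 0.0433 with the block). The mean over the 22 proximal tubule markers was 3.17 to 3.29 on the untreated arrays and 2.9 to 3.03 at 48 h, without overlap. That mean includes markers that did not pass the filter. Of the 6 proximal tubule markers tested, 3 fell, and with the block 4 were lower and 1 higher. The higher one was CDH6 (1.33, adjusted p = 0.00659 with the block), so the markers did not all move one way.

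Of 13 genes that mark tubular injury and progenitors, the secreted chaperone CLU fell (−1.21 ± 0.20, adjusted p = 0.0084). With the block the adhesion molecule VCAM1 was lower (−1.92, adjusted p = 0.0524, 0.00135 with the block) and the progenitor factor SOX9 higher (1.11, 0.0385 with the block), and the injury marker HAVCR1 had −0.54 (adjusted p = 0.335). Of 11 tetraspanins CD9 and TSPAN4 fell (−0.85 ± 0.18, adjusted p = 0.0271 for TSPAN4), and TSPAN13 rose (1.60 ± 0.22, adjusted p = 0.00271). CD63 and CD81 had −0.14 and 0.16 and did not pass. Calls lost with 1 array left out were those of KCNJ16 in 4 (0.0821, without 48 h replicate 3) and TSPAN4 in 4 (0.115, without 48 h replicate 1).

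Cytokine and immune genes split. In the IL6 family IL11 rose while IL6 fell, from 6.62, 7.05 and 7.03 to 5.64, 6.23 and 6.02 (−0.94 ± 0.18, adjusted p = 0.0188). IL11 and IL6 are ligands that share the receptor chain IL6ST, which had −0.27 and did not pass. Of 6 chemokine and adhesion genes, the neutrophil chemokine CXCL5 rose (1.15 ± 0.25, adjusted p = 0.0288) and the leukocyte adhesion molecule ICAM1 fell (−0.70 ± 0.13, adjusted p = 0.0143), while the neutrophil chemokine CXCL8 had −0.06. Of 12 antigen presentation genes HLA-DMB and the immunoproteasome subunit PSMB8 fell. HLA-DMB was at 5.93, 6.36 and 5.02 untreated and 3.63, 3.92 and 3.43 at 48 h, and PSMB8 had −0.69 ± 0.15 (adjusted p = 0.0292). The class I genes HLA-B, HLA-C and B2M had −0.07, −0.11 and −0.19 and did not pass. Of 6 genes of the IL-1 family and NF-kB limma called 0, with 2 at an unadjusted p under 0.05, and with the block the inhibitor NFKBIA was lower (−0.77, adjusted p = 0.0306). Of 5 interferon-stimulated genes it called 0, with 2 at an unadjusted p under 0.05, and with the block IFITM3 was lower (−1.09, adjusted p = 0.00107). Lost with 1 array left out were IL6 in 4 (0.076, without 48 h replicate 1), CXCL5 in 4 (0.122, without untreated replicate 1), ICAM1 in 4 (0.0696, without 48 h replicate 3) and PSMB8 in 5 (0.125, without 48 h replicate 1).

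Part of the negative feedback on the ERK pathway fell. Of 8 phosphatase and Sprouty genes DUSP5 and DUSP6, both ERK phosphatases, fell and 0 rose. DUSP6 was at 7.45, 7.48 and 7.61 untreated and 5.68, 5.41 and 5.97 at 48 h (−1.83 ± 0.24, adjusted p = 0.00223), with no overlap. The general stress phosphatase DUSP1 had −0.47, and SPRY2, an inhibitor of receptor kinase signalling, 0.24. Neither passed. Of 10 AP-1 and early growth response genes the ERK-induced subunit FOSL1 fell (−1.09 ± 0.18, adjusted p = 0.00918), and JUN and EGR1 had 0.08 and −0.21.

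Growth factor genes that rose included VEGFC, the lymphatic growth factor (1.99 ± 0.23, adjusted p = 0.00135), and the receptor IGF1R (1.47 ± 0.28, adjusted p = 0.0159). VEGFC went from 5.07, 5.03 and 5.09 to 7.18, 6.53 and 7.45, with no overlap, while VEGFA had −0.53 and did not pass. Of 5 EGF family genes limma called 0, with 3 at an unadjusted p under 0.05, and with the block the ligand TGFA was lower (−0.79, adjusted p = 0.0092) and HBEGF higher (0.93, adjusted p = 0.0448). EGF was in the medium of both groups. The factor KLF7 rose (1.36 ± 0.27, adjusted p = 0.022). Lost with 1 array left out were IGF1R in 4 (0.0712, without 48 h replicate 3) and KLF7 in 4 (0.0975, without 48 h replicate 3).

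Of 19 genes of the integrated stress and unfolded protein responses GDF15 and the factor DDIT3 fell (−0.80 ± 0.19, adjusted p = 0.0416), and ATF4 and the chaperone HSPA5 had 0.14 and 0.12. Of 7 p53 targets TP53I3, an oxidoreductase, rose from 4.01, 4.42 and 3.44 to 6.0, 6.36 and 5.45 (1.98 ± 0.33, adjusted p = 0.00845) while the death receptor FAS fell from 6.26, 5.87 and 6.10 to 4.84, 4.08 and 4.47 (−1.61 ± 0.33, adjusted p = 0.0222). Neither gene's arrays overlapped between groups. The CDK inhibitor CDKN1A had −1.04 ± 0.27 (adjusted p = 0.0659), and with the replicate block it and CDKN1C were lower (0.00455 and 0.00381). Of 7 BCL2 family genes limma called 0, with 3 at an unadjusted p under 0.05, and with the block the survival gene BCL2L1 was lower (−0.76, adjusted p = 0.00618). Of 19 glutathione and NRF2 genes SLC7A11 alone passed, a share close to that over all genes tested. Its transporter partner SLC3A2 had 0.38 and the NRF2 target NQO1 0.12. The calls lost with 1 array left out were DDIT3 in 5 (0.146, without 48 h replicate 2) and FAS in 4 (0.0984, without untreated replicate 1).

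No cell cycle gene of the lists passed without the replicate block. Of 14 CDK inhibitors, cyclins and related genes limma called 0, with 2 at an unadjusted p under 0.05. Of 42 replication and mitosis genes it called 0, with 2 at an unadjusted p under 0.05 and 1 with the block, the spindle checkpoint kinase BUB1 (0.83, adjusted p = 0.0458). Their median difference was 0.11, with a range from −0.31 to 0.83. The proliferation marker MKI67 was at 6.36, 5.29 and 6.29 untreated and 6.72, 6.20 and 5.81 at 48 h (0.26 ± 0.40, adjusted p = 0.886), and its groups overlapped.

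Few metabolic genes passed. Of 15 genes of fatty acid activation and oxidation ACSL1 fell and 0 rose, and with the block ECH1, a peroxisomal and mitochondrial isomerase, was lower (−0.59, adjusted p = 0.0191). Of 32 respiratory chain genes only the complex I subunit NDUFS7 passed, and it rose (0.52 ± 0.12, adjusted p = 0.0447). That share is below the 4.44% over all genes tested. Of 26 glycolysis and hypoxia genes limma called 0, with 4 at an unadjusted p under 0.05. With the block 1 of them was higher and 5 lower, against 5.22% and 4.81% of all genes tested. The lower genes of this list included the carbonic anhydrase CA12 (−1.5), the glucose transporter SLC2A3 (−0.97) and HIF1A, the hypoxia factor (−0.49), with adjusted p-values of 0.00698, 0.0367 and 0.0377 with the block. Of 17 cholesterol and fatty acid synthesis genes limma called 0, with 1 at an unadjusted p under 0.05, and the citrate lyase ACLY was higher with the block (0.49, adjusted p = 0.0221). Among sphingolipid enzymes the sphingosine kinase SPHK1 rose (1.60 ± 0.37, adjusted p = 0.0402) and the ceramide synthase CERS2 fell (−0.63 ± 0.15, adjusted p = 0.0488). The prostaglandin list held SLCO2A1 and, with the block alone, the receptor PTGER2 (−0.70) and the prostaglandin-reducing enzyme AKR1C3 (−0.83), both lower (adjusted p = 0.0181 and 0.0414). Lost with 1 array left out were NDUFS7 in 6 (0.182, without 48 h replicate 3), SPHK1 in 6 (0.157, without untreated replicate 1) and CERS2 in 5 (0.201, without 48 h replicate 3). Of 5 S100 genes and of 9 housekeeping genes limma called 0 in both fits, with 1 and 0 at an unadjusted p under 0.05.

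The within-run differences give each gene 3 values. For every 1 of the 194 called genes all 3 had the same sign, which follows from their groups not overlapping and adds no evidence. Over all 4368 genes tested the 3 differences had the same sign for 1811, or 41.5%. Across genes the differences correlated at 0.689 between runs 1 and 2, 0.674 between runs 1 and 3 and 0.567 between runs 2 and 3, as a description over genes, which are not independent replicates. Their SD across genes was 0.479, 0.548 and 0.484 in runs 1, 2 and 3, and their medians were 0.02, 0.02 and 0.01. The runs differed in where a gene started more than in how far it moved for some of the largest changes. KCNJ16 had untreated values of 7.58, 6.03 and 6.76 and run differences of −2.58, −2.62 and −2.93. JAG1 had run differences of 4.05, 4.61 and 3.94 and MMP1 3.20, 3.58 and 2.88.

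Among called genes the 3 run differences spread most for SMAD7, with 1.15, 1.18 and 2.75, followed by the homeobox factor CUX1 (0.94, 1.93 and 0.45), the retinoic acid-synthesising ALDH1A3 (−1.04, −0.32 and −1.66), LMCD1 (2.2, 1.53 and 2.82) and TAGLN (2.00, 2.08 and 3.24). For SMAD7, LMCD1 and TAGLN the widest difference was that of run 3, where the untreated array was the lowest of its group. The smallest differences that passed were those of TPM1 (0.53, 0.60 and 0.39), NDUFS7 (0.61, 0.36 and 0.59), LITAF, an endosomal membrane protein (0.54, 0.52 and 0.54), FDX1, a mitochondrial electron carrier (−0.56, −0.49 and −0.59), and CST3, the protease inhibitor cystatin C (−0.76, −0.59 and −0.41). The runs of these 5 genes lay close to each other, which follows from the choice, as a small difference passes only where arrays spread little. Calls lost with 1 array left out among these were SMAD7 in 3 (0.0813, without 48 h replicate 3), CUX1 in 5 (0.0948, without 48 h replicate 2), ALDH1A3 in 4 (0.129, without 48 h replicate 3), LMCD1 in 1 (0.0531, without untreated replicate 1), TPM1 in 5 (0.16, without 48 h replicate 2), NDUFS7 in 6 (0.182, without 48 h replicate 3), LITAF in 6 (0.16, without 48 h replicate 2), FDX1 in 6 (0.143, without 48 h replicate 3) and CST3 in 5 (0.109, without 48 h replicate 1). Conversely, 39 genes differed at least 2-fold without a call, of which 38 passed with the replicate block. The exception was the adhesion molecule L1CAM, named after its values were seen, with run differences of −2.18, −0.65 and −1.01 (adjusted p = 0.361, 0.0596 with the block).

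**Figure D4:**
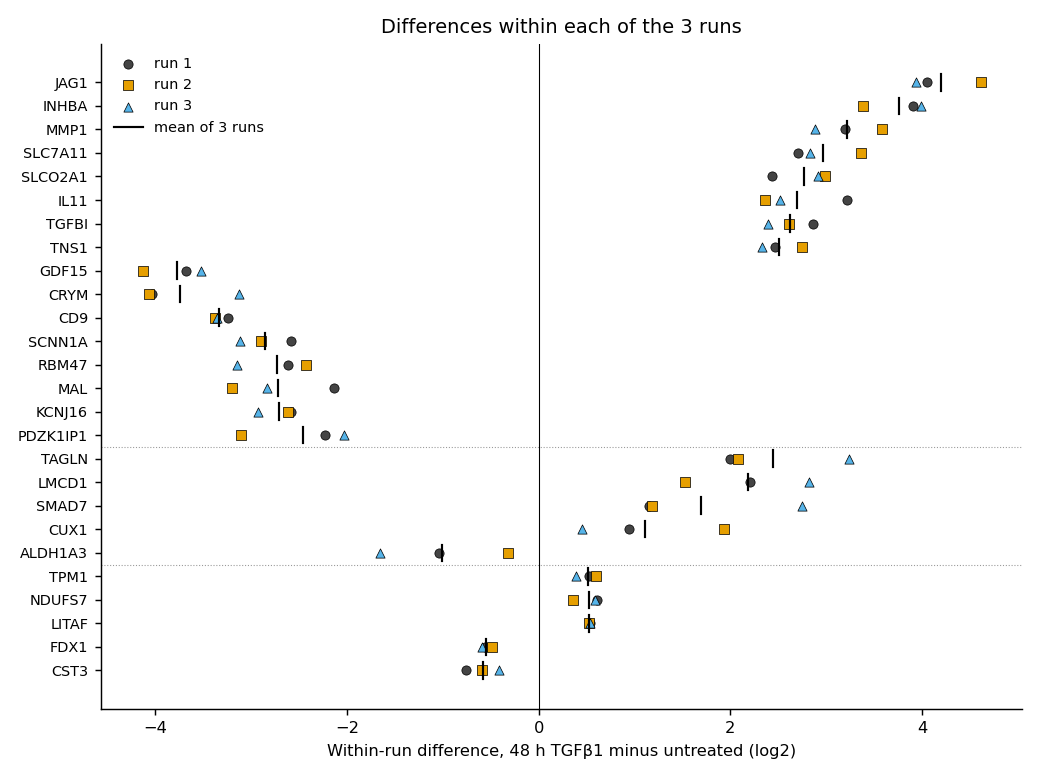
Within-run log2 difference (48 h minus untreated, x axis) in runs 1, 2 and 3 for named genes, with the mean as a bar, grouped by why the gene was named. SMAD7 shows the widest spread of the called genes shown (1.15, 1.18 and 2.75). The smallest differences that passed, such as TPM1 (0.53, 0.60 and 0.39), have runs that lie close together. That closeness follows from the choice, as a small difference passes only where arrays spread little.

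Other probe sets of the called genes differed in the same direction as the set used. Of the 194 called genes 34 had 44 other probe sets whose mean log2 value reached 4, and all 44 differences had the sign of the set used. Such sets of JAG1 had 4.93 and 4.16 against 4.20, those of PAX8 −1.03, −0.72, −0.73 and −0.16 against −0.81, and those of TPM1 1.37, 0.95 and 0.61 against 0.51. When every probe set was tested, other sets of COL4A1 (1.10, adjusted p = 0.00765), COL4A2 (0.75, adjusted p = 0.0185) and ACLY (0.74, adjusted p = 0.00765, and 0.85, adjusted p = 0.0199), and 1 other set each of CDH6 (2.14, adjusted p = 0.0314) and SOX9 (0.95, adjusted p = 0.0379) passed without the replicate block, while the set used for TAGLN2 did not (0.72, adjusted p = 0.0529). The mean of a gene's probe sets gave smaller differences for several named genes: 3.34 for JAG1, 2.27 for INHBA (adjusted p = 0.00105) and −1.02 for SCNN1A (adjusted p = 0.00939), against 4.20, 3.76 and −2.86 for the set used. With that mean the calls of PDLIM7 (0.53, adjusted p = 0.0789), ICAM1 (−0.33, adjusted p = 0.169) and FDX1 (−0.44, adjusted p = 0.0991) were lost, and FN1 (1.19, adjusted p = 0.00154), COL4A1, COL4A2, NEDD9, SOX9 and ACLY passed without the block. Of 98 named genes with a call only 79 passed the filter with that mean. IL11, TNS1, WNT5A, FBN1, HES1 and EFEMP1 did not and were not tested there. Of all 194 calls 151 were kept with that mean, and 43 were lost or not tested. The sizes of a change thus differ between sets, and sets of TPM1 can read different transcripts of the gene.

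Cells at 24 h of TGFβ1 share the untreated arrays with this comparison, so values are given side by side without a test. MMP1 had a mean of 5.12 untreated, 7.40 at 24 h and 8.34 at 48 h, and SLC7A11 3.43, 5.03 and 6.4. FXYD2 had 9.37, 8.35 and 7.27, and JAG1 5.39, 9.46 and 9.59.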

How the data were processed

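Biotin-labelled RNA of HK-2 cells was hybridised to 9 Affymetrix arrays, 3 per time point, of which the 24 h arrays enter through the filter, the shared estimate of the spread, the pairing check and a few means given side by side. The values deposited by the authors are on a log2 scale, 1 per probe set. Per the submitters' processing notes they come from GCRMA, version not given in the sources used here, which corrects background by probe sequence and normalizes between arrays. The log base was read from the highest value, 12.52. The number of arrays limits the precision, and no detection calls were used.

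Of 22277 probe sets 19064 had 1 gene symbol in the platform annotation, 1043 several and 2170 none, controls included. Symbols were updated through a RefSeq gene table, which matched 19052. Each of 11963 genes was represented by its probe set of highest mean, and some such sets can match related sequences. Genes with log2 values of at least 4 on at least 3 arrays were tested (4368, or 36.5%) with limma 3.58.1 in R 4.3.3, all 9 arrays in 1 fit, with Benjamini-Hochberg adjustment over these genes and a threshold of 0.05. The script was tested on simulated data.

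The replicate numbers were checked for pairing over all 9 arrays. Array deviations from their group's mean correlated at 0.378 to 0.662 within a number and at −0.526 to 0.185 between numbers, so the numbers were taken to mark the runs. Values with the number as a block are printed where they change a call. Without the block, p-values include the shifts between runs.

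Genes named were the 15 largest increases and 15 largest decreases past the threshold whose groups did not overlap, a fixed set, some of the members of the gene lists that passed in either fit (with others for contrast), the 5 called genes whose run differences spread most and the 5 smallest called differences. Members and lists were chosen with earlier results of these data known. Alternatives were the block, the 6 arrays alone, other filters, other rules for probe sets, quantile and median normalization, an intensity trend, and leaving out arrays or runs. Some genes are not reported here.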

Additional observations from a re-analysis of the deposited data

How the results depend on the processing

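The number of genes called depended most on how runs and arrays were handled. Against 194 calls (99 higher, 95 lower), the replicate block gave 438 (228 and 210), and the block fitted to the 6 arrays alone 363 (189 and 174). The blocked fits contained all 194 calls with 9 arrays and 191 of them with 6. Leaving out single arrays or whole runs gave 33 to 206 calls, 18 to 118 higher and 15 to 88 lower. The count stayed within 1.5 times of 194 with 6 arrays and no block (177), no filter (212), a filter at log2 6 (150), every probe set tested (207), the mean of probe sets (176), quantile normalization (207), median centring (209) and an intensity trend (224). Of 98 named genes with a call, the block kept 98 and 6 arrays without it kept 85, quantile normalization and median centring kept 95 each, and leaving out replicate 1 kept 29. No named gene that was called changed sign under these settings. Where arrays or runs were left out this follows from the groups not overlapping, and it adds no evidence. The block, the 6 arrays, the filters, every probe set and the intensity trend leave the difference of a probe set as it was. Only the mean of probe sets, quantile normalization and median centring could have changed a sign. Values near the array median limit the size of folds that start or end there.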

Other observations

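Genes just below the 15 largest changes, ranks 16 to 25 on each side, were chosen after their values were seen and are given as values. Higher at 48 h were SIK1, a salt-inducible kinase (1.97 ± 0.23, adjusted p = 0.00154), PAX6, a developmental homeobox factor (1.92 ± 0.18, adjusted p = 0.000428), the adhesion receptor ADGRG1 (1.90 ± 0.22, adjusted p = 0.00122), the O-glycosylation enzyme GALNT10 (1.83 ± 0.21, adjusted p = 0.00133) and DOCK4, an activator of small GTPases (2.05 ± 0.37, adjusted p = 0.0133). PAX6 was at 5.66, 5.09 and 5.47 in untreated replicates 1 to 3 and 7.47, 7.09 and 7.41 at 48 h, with no overlap. SIK1 has a near-identical copy in the genome, so its probes cannot be assigned to 1 of them with certainty.

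Lower at 48 h were the inflammatory transcription factor CEBPD (−1.81 ± 0.24, adjusted p = 0.00262), GSE1 (−1.81 ± 0.19, adjusted p = 0.00075), the GPI-anchored LY6E (−1.70 ± 0.15, adjusted p = 0.000284), the lipid droplet coat protein PLIN2 (−1.62 ± 0.26, adjusted p = 0.00709), the propionyl-CoA carboxylase subunit PCCA (−1.76 ± 0.37, adjusted p = 0.0262), the lysosomal cholesterol transporter NPC1 (−1.71 ± 0.41, adjusted p = 0.0488), the organic anion transporter SLCO4A1 (−1.67 ± 0.32, adjusted p = 0.0187) and MEGF9 (−1.62 ± 0.29, adjusted p = 0.0121). LY6E was at 6.47, 6.09 and 6.31 untreated and 4.42, 4.74 and 4.61 at 48 h, and PLIN2 at 7.62, 7.84 and 8.44 and 6.22, 6.21 and 6.63. With the mean of a gene's probe sets PLIN2 had −0.80 (adjusted p = 0.023) and NPC1 −0.87 (adjusted p = 0.116), which ended its call. Calls lost in some of the 6 fits with 1 array left out were DOCK4 in 2 (0.0672, without 48 h replicate 1), PCCA in 4 (0.109, without untreated replicate 1), NPC1 in 5 (0.154, without untreated replicate 1), SLCO4A1 in 5 (0.0689, without 48 h replicate 1) and MEGF9 in 1 (0.057, without untreated replicate 1), given with the number of such fits and the largest adjusted p.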
